A study of Homo sapiens with 9 samples.

Results

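The genes described here are 10 markers of the mesenchymal and epithelial states of a cell, taken from the 24344 genes of the count table by symbol. The mesenchymal side held 5 of them, VIM, CDH2, CDH11, ZEB1 and SNAI2, and the epithelial side held the other 5, CDH1, EPCAM, KRT8, KRT18 and KRT19. All 10 passed the filter on low counts and were among the 14195 genes tested. They were measured by unstranded RNA sequencing in MDA-MB-231, a single established human breast adenocarcinoma line. The treatment lasted 48 h. It was CKI (Compound Kushen Injection, prepared from both herbs) at 2 mg/ml, or an injection of only Kushen or only Baituling at the matching dilution. There were 3 libraries of each treatment. No untreated library was used here, and every difference is therefore between treatments. Levels are given as CPM, counts scaled to a common library size after TMM, and differences as log2 fold changes with standard errors.

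Epithelial cells are held together by E-cadherin (CDH1) and carry the keratin pair KRT8 and KRT18, whereas mesenchymal cells build their intermediate filaments from vimentin (VIM) and can carry N-cadherin (CDH2). In the epithelial to mesenchymal transition the repressors ZEB1 and SNAI2 (Slug) bind E-box sequences in epithelial genes such as CDH1. MDA-MB-231 is commonly used as a mesenchymal-like line, in which vimentin is abundant and E-cadherin scarce.

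The upstream windows of the most strongly shifted member and of the only member that was higher after CKI than after Baituling are shown because these genes lay on opposite sides in that comparison. They are the 250 bases before the gene start from RefSeq (GRCh38.p14), written 5′ to 3′ on the strand of the gene. The VIM window is chr10:17227991-17228240 (plus strand) and the CDH2 window is chr18:28177131-28177380 (minus strand), the first of the CDH2 windows listed. Capitals mark the GC box GGGCGG or its reverse complement CCGCCC.
VIM: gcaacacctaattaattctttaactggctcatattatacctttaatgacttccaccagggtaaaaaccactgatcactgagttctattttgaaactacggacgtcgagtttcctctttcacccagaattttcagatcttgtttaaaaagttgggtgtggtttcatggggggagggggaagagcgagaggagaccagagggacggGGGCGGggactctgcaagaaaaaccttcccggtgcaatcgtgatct
CDH2: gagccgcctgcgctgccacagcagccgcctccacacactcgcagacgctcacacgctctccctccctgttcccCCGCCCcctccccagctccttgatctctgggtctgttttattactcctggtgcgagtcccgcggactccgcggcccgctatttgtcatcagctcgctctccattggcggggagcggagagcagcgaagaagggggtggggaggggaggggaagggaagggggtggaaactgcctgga

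Windows were found for 4 of the 10 members, VIM, CDH2, ZEB1 and KRT8. Searched on both strands, GGGCGG was in 42.3% of the 27305 promoters of this length, CAGGTG (an E-box) in 17.5% and TGANTCA (the AP-1 motif) in 6.6%. Both windows shown held the GC box once and held neither CAGGTG nor TGANTCA. The other CDH2 window held TGANTCA and no GC box. These matches are descriptions of letters, not of binding.

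Before the members are compared, their identity and the libraries are described. Of the markers of a mesenchymal-like breast line other than VIM, the averages in the 3 treatments were 481 to 1383 CPM for FN1 (fibronectin), 534 to 1025 CPM for AXL (a receptor tyrosine kinase), 616 to 904 CPM for CD44 (the hyaluronan receptor), 746 to 1377 CPM for MSN (moesin) and 169 to 467 CPM for CAV1 (caveolin). Matrix genes of fibroblasts differed in level. SPARC averaged 0.877 to 2.86 CPM, and POSTN, which was named after its values were seen, had 0 counts in all libraries. Other matrix genes were abundant, among them FN1 (above) and LOXL2, with 497 to 781 CPM per library. The oestrogen receptor gene ESR1 had 0 to 3 counts per library and the leukocyte gene PTPRC had 0 to 9. TWIST1 had 0 or 1 count. KRT19 went against a purely mesenchymal reading of the line, since it was, per kilobase of the canonical transcript, above VIM in each treatment. On the same scale KRT18 was below VIM in each treatment. KRT8 was below VIM after Baituling and above it after CKI and after Kushen. In a bulk sample, fewer cells of a type and less RNA per cell cannot be told apart.

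Baituling replicates 2 and 3 stood apart from the other 7 libraries in transcripts of stratified squamous epithelium. KRT5 (a basal keratin) had 93 and 124 counts in these libraries and 0 in the other 7. KRT14, its partner, had 50 and 40 counts, against 3 in CKI replicate 1 and 0 in the other 6. Of 26 squamous genes, listed after this had been seen, 15 had more counts in both of these libraries than in any of the other 7, and KRT6C, IVL and SPRR1B were at 0 in all 9. The list summed to 153 to 168 CPM after CKI, to 144 to 152 CPM after Kushen and to 491 to 527 CPM after Baituling, mostly SFN and S100A2. Without these 2 genes the summed count was 479 in Baituling replicate 1 and 888 and 898 in replicates 2 and 3, with 788 to 817 in the CKI libraries and 387 to 480 in those of Kushen. Results on the epithelial members are therefore also given with Baituling replicate 1 as the only Baituling library. The Baituling arm then has no replicate, and its spread is taken from the CKI and Kushen libraries, so these values are no replicated result.

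**Figure D1:**
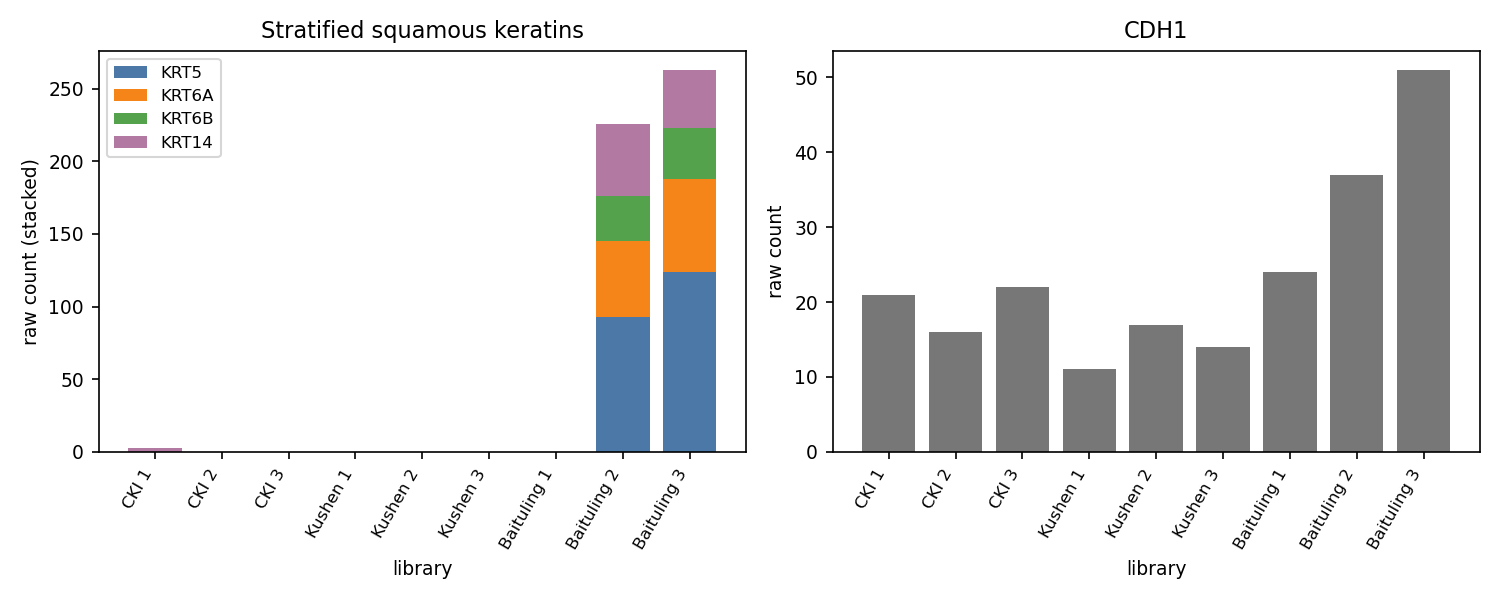
Raw counts in each of the 9 libraries, stacked for the squamous keratins KRT5, KRT6A, KRT6B and KRT14 on the left and of CDH1 on the right, both on linear axes from 0. The squamous keratins stand almost entirely in Baituling replicates 2 and 3, where CDH1 is also highest (37 and 51 counts).

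Levels between genes were compared per kilobase of canonical transcript. After Baituling the order was KRT19 (1138 CPM per kb), VIM (961), KRT8 (717) and KRT18 (222). After CKI it was KRT19 (489), KRT8 (295), VIM (163) and KRT18 (89.8), so that VIM moved below KRT8. After Kushen KRT8 (341) was also above VIM (271), but not per kilobase of merged exons, where VIM had 113 and KRT8 88.5. The other 6 members were far lower in every treatment, from CDH11 (at most 23.3 CPM per kb) through ZEB1 (11.1 to 12.1), SNAI2 (9.86 to 15.6) and EPCAM (4.73 to 8.76) to CDH2 (0.141 to 0.359) and CDH1 (0.122 to 0.417). ZEB1 and SNAI2 changed places after Baituling, and CDH2 and CDH1 did so too.

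**Figure D2:**
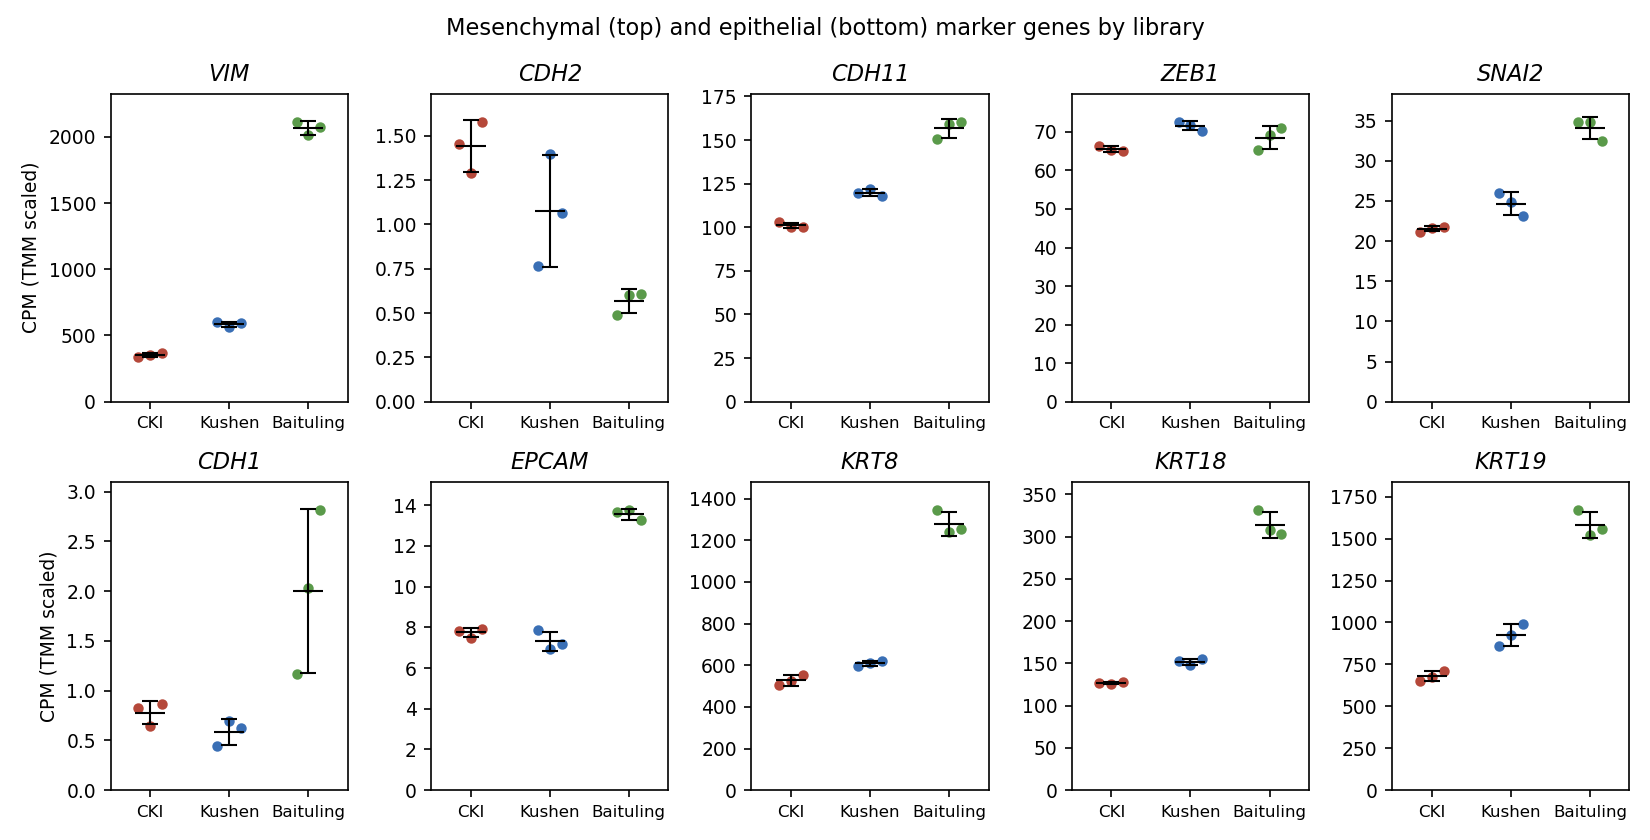
Level of each member in CPM (TMM scaled, linear axis from 0, a different range in each panel) in the 3 libraries of each treatment, with the mean as a long bar and the SD as a capped line. All libraries of VIM separate by treatment, from 336 to 364 CPM after CKI to 2014 to 2116 CPM after Baituling, while ZEB1 stays between 65.0 and 72.7 CPM.

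VIM (ENSG00000026025, chromosome 10, 17270240 to 17279592, build GRCh37) encodes the intermediate filament protein of mesenchymal cells. Its level was 336, 351 and 364 CPM in the CKI libraries, 599, 563 and 591 CPM in the Kushen libraries and 2116, 2014 and 2079 CPM in the Baituling libraries. No treatment overlapped another, and VIM ranked 370 to 406 among all genes by count after CKI, 181 to 208 after Kushen and 26 to 28 after Baituling. VIM was lower after CKI than after Kushen by a log2 fold change of -0.74 ± 0.04 (edgeR adjusted p = 1.80e-10) and lower than after Baituling by -2.56 ± 0.04 (edgeR adjusted p = 2.35e-19), a 5.90-fold difference. Kushen was below Baituling by -1.83 ± 0.04 (edgeR adjusted p = 1.63e-17). With Baituling replicate 1 alone the differences from Baituling were -2.61 for CKI and -1.86 for Kushen, with no replicate of Baituling. VIM overlaps the antisense gene VIM-AS1, and the libraries carry no strand. VIM-AS1 had 269 to 284 raw counts after CKI, 188 to 201 after Kushen and 169 to 195 after Baituling. VIM had at least 8578 counts in every library. After TMM scaling the log2 fold change of VIM-AS1 was 0.44 for CKI against Kushen and 0.22 for CKI against Baituling. For Kushen against Baituling it was -0.22, so on this scale VIM-AS1 was lowest after Kushen. The part of this overlap in the VIM counts was not tested.

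The mesenchymal cadherins moved apart. CDH11 (chromosome 16, 64977656 to 65160015), a cadherin of mesenchymal and bone-forming cells, had 103, 100.1 and 100.1 CPM after CKI, 119, 122 and 118 after Kushen and 151, 159 and 161 after Baituling. The treatments did not overlap, and CDH11 was lower after CKI than after Kushen (-0.25 ± 0.04, edgeR adjusted p = 0.000127) and than after Baituling (-0.63 ± 0.04, edgeR adjusted p = 4.95e-11). CDH2 (chromosome 18, 25512843 to 25757910), which encodes N-cadherin, was scarce, with 37, 32 and 40 counts after CKI, 19, 34 and 24 after Kushen and 10, 11 and 11 after Baituling. Every CKI and Kushen library lay above every Baituling library, and those of CKI and Kushen overlapped. CDH2 was higher after CKI than after Baituling by 1.35 ± 0.30 (edgeR adjusted p = 0.000478), and higher after Kushen than after Baituling by 0.92 ± 0.32 (edgeR adjusted p = 0.0145). The difference between CKI and Kushen was 0.42 with a 95% interval of -0.10 to 0.95 (edgeR adjusted p = 0.191), so at these counts a difference was not detectable. The difference between Kushen and Baituling did not pass without Kushen replicate 2 (0.68, edgeR adjusted p = 0.0898) or without Baituling replicate 1 (0.83, edgeR adjusted p = 0.0544). With Baituling replicate 1 as the only Baituling library the difference was 1.12, on the 10 counts of that library. Without a Baituling replicate this value adds no support to the call.

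The repressors were ZEB1 (chromosome 10, 31607424 to 31818742) and SNAI2 (chromosome 8, 49830157 to 49834299). ZEB1 had 66.4, 65.4 and 65.0 CPM after CKI, 72.7, 71.8 and 70.3 after Kushen and 65.2, 69.2 and 71.0 after Baituling. The Baituling libraries spanned the gap between the other treatments. ZEB1 was lower after CKI than after Kushen by -0.13 ± 0.05 (edgeR adjusted p = 0.0363). That call was lost under library totals (-0.05, edgeR adjusted p = 0.439). It was also lost when any CKI library, Kushen replicate 1 or Kushen replicate 2 was left out, with adjusted p of 0.0655, 0.0943, 0.0941, 0.0781 and 0.0758 in that order in edgeR. Against Baituling the differences of ZEB1 did not pass, with 95% intervals of -0.16 to 0.04 for CKI and -0.03 to 0.16 for Kushen, and under library totals both were positive and passed (0.23 and 0.28). SNAI2 had 21.1, 21.6 and 21.7 CPM after CKI, 26.0, 24.8 and 23.1 after Kushen and 34.8, 34.9 and 32.5 after Baituling, with no overlap. It was lower after CKI than after Baituling by -0.66 ± 0.06 (edgeR adjusted p = 1.11e-08) and lower after Kushen than after Baituling by -0.47 ± 0.06 (edgeR adjusted p = 1.64e-06). The smaller difference between CKI and Kushen (-0.20 ± 0.06, edgeR adjusted p = 0.0185) was lost under library totals (adjusted p = 0.142), without CKI replicate 1 (0.0616) and without Kushen replicate 1 (0.0797).

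On the epithelial side, CDH1 (chromosome 16, 68771195 to 68869440) was near the floor of detection. It had 21, 16 and 22 counts after CKI, 11, 17 and 14 after Kushen and 24, 37 and 51 after Baituling. Baituling replicates 2 and 3, the libraries with squamous transcripts, were the highest. CDH1 was lower after CKI than after Baituling by -1.34 ± 0.31 (edgeR adjusted p = 0.000579) and lower after Kushen by -1.75 ± 0.33 (edgeR adjusted p = 8.32e-05). With Baituling replicate 1 alone these were -0.60 and -1.0, resting on 24 counts in that library. With the spread assumed to be that of CKI and Kushen, neither passed (edgeR adjusted p = 0.217 and 0.0568). The part of the squamous transcripts in the CDH1 result was not tested. CKI and Kushen overlapped (0.41, 95% interval -0.36 to 1.18).

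EPCAM (chromosome 2, 47572297 to 47614740), a surface adhesion protein of epithelia, had 7.81, 7.49 and 7.94 CPM after CKI, 7.85, 6.93 and 7.19 after Kushen and 13.7, 13.8 and 13.2 after Baituling. CKI and Kushen overlapped (0.08, 95% interval -0.11 to 0.28), and both lay below all 3 Baituling libraries. The difference was -0.81 ± 0.09 for CKI (edgeR adjusted p = 8.38e-08) and -0.89 ± 0.09 for Kushen (edgeR adjusted p = 3.31e-08). With Baituling replicate 1 alone it was -0.83 for CKI and -0.91 for Kushen, again without a Baituling replicate.

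The simple keratins were the abundant epithelial members, and all 3 increased in the order CKI, Kushen, Baituling without overlap. KRT8 (chromosome 12, 53290971 to 53343738) had 505, 522 and 553 CPM after CKI, 597, 611 and 619 after Kushen and 1345, 1239 and 1254 after Baituling. Its partner KRT18 (chromosome 12, 53342655 to 53346690) had 127, 126 and 128 CPM, then 153, 148 and 155, then 332, 308 and 303. KRT19 (chromosome 17, 39679869 to 39684560), the smallest keratin, had 653, 673 and 711 CPM, then 862, 923 and 991, then 1671, 1519 and 1556. Baituling replicate 1, which had no count of KRT5, KRT6A, KRT6B or KRT14, was the highest library for each of them.

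Between CKI and Baituling the log2 fold change was -1.28 ± 0.04 for KRT8 (edgeR adjusted p = 2.58e-15), -1.31 ± 0.04 for KRT18 (edgeR adjusted p = 1.49e-15) and -1.22 ± 0.05 for KRT19 (edgeR adjusted p = 5.13e-14). Between CKI and Kushen these were -0.21, -0.26 and -0.45, and between Kushen and Baituling -1.07, -1.05 and -0.77, and each passed. With Baituling replicate 1 alone the differences of CKI from Baituling were -1.37, -1.40 and -1.31. KRT8 and KRT18 lie next to each other and overlap on opposite strands by 1084 bases, 525 of them exonic, so part of their reads cannot be told apart. All 3 keratins have pseudogene copies, and how shared reads were counted is not given in the sources used here.

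The ratio of KRT8 to KRT18 counts stayed between 3.89 and 4.31 in all 9 libraries. The ratio of VIM to KRT18 counts was 2.66 to 2.84 after CKI, 3.80 to 3.90 after Kushen and 6.38 to 6.86 after Baituling, with no overlap. KRT19 to KRT18 averaged 5.35 ± 0.189 after CKI, 6.08 ± 0.411 after Kushen and 5.04 ± 0.101 after Baituling (SD, n = 3).

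CKI was then compared with Kushen over all members. CKI also holds Baituling, and any other difference between these separate preparations cannot be told apart from that. By edgeR, 7 of 10 members were lower after CKI and none was higher, where 20.2% of all genes tested were lower, 19.6% higher and 39.8% either. Under library totals 5 were lower, without ZEB1 and SNAI2. The 3 that did not pass on the TMM scale were CDH2, CDH1 and EPCAM. None passed the additional threshold of a log2 fold change beyond 1 in edgeR, DESeq2 or limma voom, although 7 had an unadjusted p under 0.05. Of all genes 1.9% passed that threshold, 0.197% lower and 1.7% higher. The treatments did not overlap for 7 members, and for 49.5% of all genes. The median difference of the members was -0.20, and that of all genes 0.01.

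In the comparison of CKI with Baituling the mixture also holds Kushen, and the same limit applies. CKI was lower in 8 members and higher in CDH2, and ZEB1 did not pass, against 37% of all genes lower, 39.1% higher and 76.1% either. Past a log2 fold change of 1 were 6 members, VIM, CDH1, KRT8, KRT18 and KRT19 lower and CDH2 higher, where 7.91% of all genes were lower, 11.2% higher and 19.1% either. The median was -1.01 for the members and 0.03 for all genes. Non-overlap was found for 9 members and 78.3% of all genes. All 5 epithelial members and 3 of 5 mesenchymal members were lower, and without Baituling replicates 2 and 3 this was 4 and 3.

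Kushen was set against Baituling as single injections. Again 8 members were lower, CDH2 was higher and ZEB1 did not pass, against 36.1% of all genes lower, 35.6% higher and 71.6% either. Past a log2 fold change of 1 were VIM, CDH1, KRT8 and KRT18, 4 members, where 6.73% of all genes were lower, 8.5% higher and 15.2% either. Without Kushen replicate 1 there were 5, with CDH2 added, and without Baituling replicate 1 there were 3, with KRT18 lost. The treatments did not overlap for 9 members and for 73.1% of all genes, and the median was -0.83 for the members and 0.02 for all genes. The comparisons share libraries, so they are not independent of each other.

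**Figure D3:**
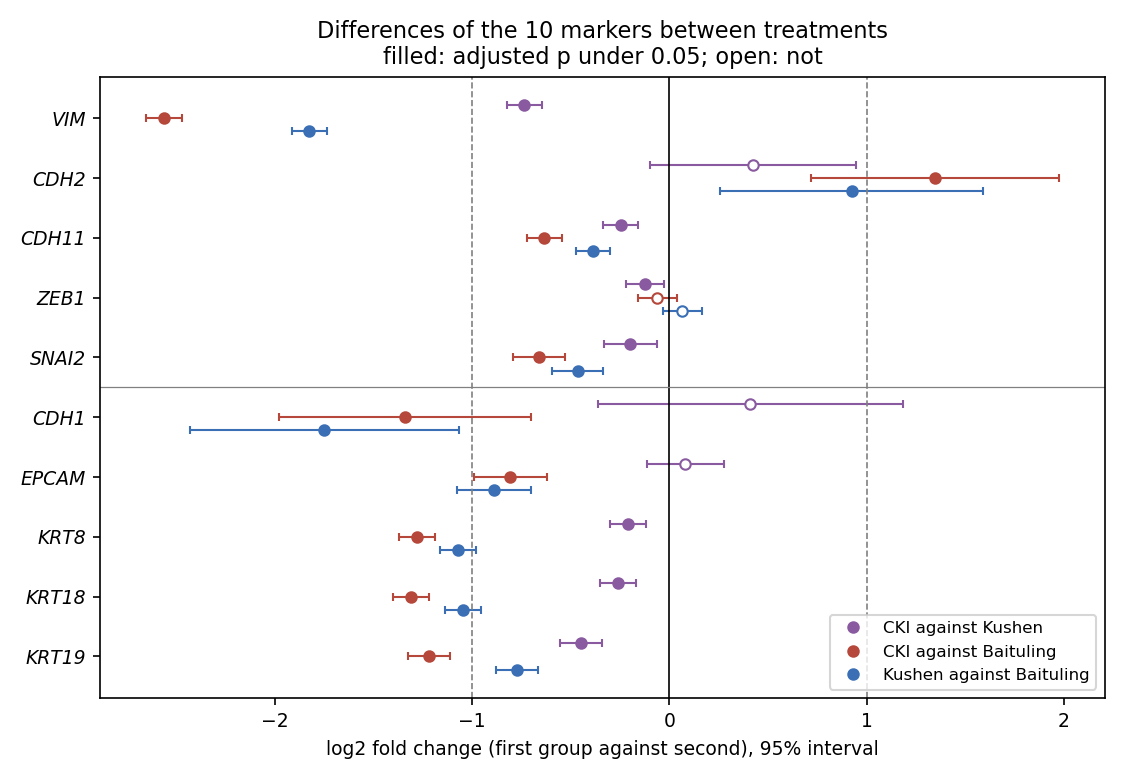
Log2 fold change of each member with its 95% interval in the 3 comparisons, from edgeR. VIM lies lowest against Baituling (-2.56 for CKI and -1.83 for Kushen), and ZEB1 is within 0.13 of 0. The estimates of CDH2 lie above 0 in all 3, but the CDH2 interval in CKI against Kushen spans 0 (-0.10 to 0.95).

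Other genes of the same biology were taken from 6 lists that held 115 genes passing the filter and no member. The EMT transcription factors were mostly lower after CKI and Kushen than after Baituling. In CKI against Baituling 12 of the 16 tested were lower, 2 higher and 2 did not pass, with a median of -0.59, where 37% of all genes were lower. In Kushen against Baituling 13 were lower, 1 higher and 2 did not pass (median -0.77), where 36.1% of all genes were lower. In CKI against Kushen 4 were higher and none lower, while 12 did not pass (all genes 19.6% higher and 20.2% lower). Under library totals 9 were lower and 3 higher in CKI against Baituling.

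SOX4 and SOX9, transcription factors used in EMT, were lower after CKI than after Baituling by -1.48 ± 0.07 and -1.17 ± 0.05 (edgeR adjusted p = 3.48e-13 and 1.06e-13). SNAI1 (Snail, the relative of SNAI2) averaged 8.42 ± 1.11 CPM after CKI, 6.33 ± 0.871 after Kushen and 14.7 ± 3.37 after Baituling (SD, n = 3), and was lower against Baituling for CKI (-0.81 ± 0.14) and Kushen (-1.22 ± 0.15). ZEB2, the relative of ZEB1, averaged 7.14, 6.59 and 13.5 CPM and was lower against Baituling by -0.91 ± 0.10 for CKI and -1.03 ± 0.10 for Kushen, in contrast to ZEB1 itself. FOXC1 was higher after CKI than after Kushen by 0.53 ± 0.07 (edgeR adjusted p = 5.00e-06). FOSL1, an AP-1 subunit, was higher by 0.24 ± 0.05. TCF4 was the gene of this list that was higher after CKI than after Baituling with the smallest adjusted p (0.61 ± 0.18).

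The other mesenchymal genes had both directions. In CKI against Baituling 17 of 33 tested were lower, 8 higher and 8 did not pass, where 37% of all genes were lower and 39.1% higher. In Kushen against Baituling 16 were lower and 9 higher (all genes 36.1% and 35.6%), and in CKI against Kushen 10 were lower and 6 higher (20.2% and 19.6%). The balance depended on the scaling. Library totals gave 14 lower and 13 higher in CKI against Baituling and 9 lower and 10 higher in CKI against Kushen. In Kushen against Baituling they gave 12 lower and 13 higher. TNC (tenascin C, a matrix protein) averaged 19.4 ± 0.359 CPM after CKI, 27.8 ± 0.882 after Kushen and 139 ± 2.85 after Baituling (SD, n = 3), lower after CKI than after Baituling by -2.84 ± 0.05 (edgeR adjusted p = 3.76e-19). FN1 averaged 481, 589 and 1383 CPM, lower after CKI than after Baituling by -1.52 ± 0.05. CAV1 (caveolin) was lower by -1.40 ± 0.04. LUM (lumican) was higher after CKI than after Baituling by 4.27 ± 0.23, on 5 to 9 counts per Baituling library. S100A4 was lower after CKI than after Kushen by -0.80 ± 0.05 and NT5E (CD73) by -0.55 ± 0.04.

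Epithelial junction and surface genes moved in both directions. In CKI against Baituling 16 of 33 tested were higher, 12 lower and 5 did not pass (median 0.16), where 39.1% of all genes were higher and 37% lower. In Kushen against Baituling 14 were higher and 11 lower (all genes 35.6% and 36.1%). In CKI against Kushen 11 of the 33 were higher and 7 lower (all genes 19.6% and 20.2%). Under library totals 19 were higher and 9 lower in CKI against Baituling, and 14 higher and 6 lower in CKI against Kushen. SPINT1, a membrane protease inhibitor, was higher after CKI than after Baituling by 1.78 ± 0.07, while its relative SPINT2 was lower by -0.87 ± 0.05. OCLN (occludin) was higher by 0.84 ± 0.09. PKP3, a plakophilin of desmosomes, was lower by -2.12 ± 0.08. CLDN7, a claudin, was lower after CKI than after Kushen (-0.31 ± 0.05), and than after Baituling (-0.63 ± 0.05). PPL (periplakin) was higher after CKI than after Kushen by 0.82 ± 0.10, and MYO5C was lower by -0.58 ± 0.11.

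The epithelial transcription and splicing factors also had both directions. Between CKI and Baituling 6 of 14 tested were higher, 7 lower and 1 did not pass (all genes: 39.1% higher and 37% lower). In Kushen against Baituling 4 were higher and 8 lower (all genes: 35.6% and 36.1%). Under library totals 8 were higher and 4 lower in CKI against Baituling, and 6 higher and 6 lower in Kushen against Baituling. In CKI against Kushen 3 were higher and 1 lower (all genes: 19.6% and 20.2%). SPDEF, an ETS factor of secretory epithelium, averaged 27.2 ± 2.89 CPM after CKI, 34.1 ± 4.06 after Kushen and 164 ± 3.88 after Baituling (SD, n = 3), lower after CKI than after Baituling by -2.59 ± 0.07 (edgeR adjusted p = 1.55e-16). GATA3, a luminal factor, was lower by -1.35 ± 0.10. GRHL1, a grainyhead factor, was higher by 1.89 ± 0.22. KLF4 was higher after CKI than after Kushen by 0.86 ± 0.06 and ELF3 by 1.01 ± 0.16. ESRP1, the epithelial splicing regulator, had 1 to 20 counts per library, GRHL2 0 to 7 and OVOL1 0 to 4, and these were not tested.

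Of the other keratins 7 of 21 were tested. In Kushen against Baituling 5 were lower and 2 higher (all genes 36.1% and 35.6%). Between CKI and Baituling 2 were lower, 1 higher and 4 did not pass, where 37% of all genes were lower and 39.1% higher. In CKI against Kushen 3 keratins were higher and 1 lower (all genes 19.6% and 20.2%). Under library totals 1 was lower and 5 were higher in CKI against Baituling. In Kushen against Baituling that scaling gave 3 lower and 2 higher. KRT7, a simple keratin often found with KRT8 and KRT18, averaged 147 ± 2.20 CPM after CKI, 189 ± 4.05 after Kushen and 374 ± 14.8 after Baituling (SD, n = 3), in the same order as the keratin members, and was lower after CKI than after Baituling by -1.35 ± 0.04 (edgeR adjusted p = 5.47e-16). KRT15 was higher after CKI than after Baituling by 0.99 ± 0.08. KRT80 averaged 79.5, 69.0 and 88.0 CPM.

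Of the other cadherins and catenins 12 of 25 were tested. In CKI against Kushen 6 were lower and 1 higher, where 20.2% of all genes were lower and 19.6% higher, and under library totals this was 3 lower and 2 higher. In CKI against Baituling 3 were lower and 5 higher (all genes 37% and 39.1%). In Kushen against Baituling 2 were lower and 6 higher (all genes 36.1% and 35.6%). Library totals gave 2 lower and 7 higher in CKI against Baituling, and 1 lower and 9 higher in Kushen against Baituling. CDH4 (R-cadherin), close in sequence to CDH2, was more abundant than CDH2, at 45.2 ± 0.627 CPM after CKI, 71.8 ± 4.69 after Kushen and 117 ± 4.13 after Baituling (SD, n = 3). It was lower after CKI than after Baituling by -1.37 ± 0.05 (edgeR adjusted p = 1.01e-14), while CDH2 was higher. CDH24 was higher by 1.34 ± 0.08. CTNNB1 (beta-catenin) was lower after CKI than after Kushen (-0.19 ± 0.04) and than after Baituling (-0.22 ± 0.04). CTNND1 (p120 catenin) averaged 168, 165 and 169 CPM.

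**Figure D4:**
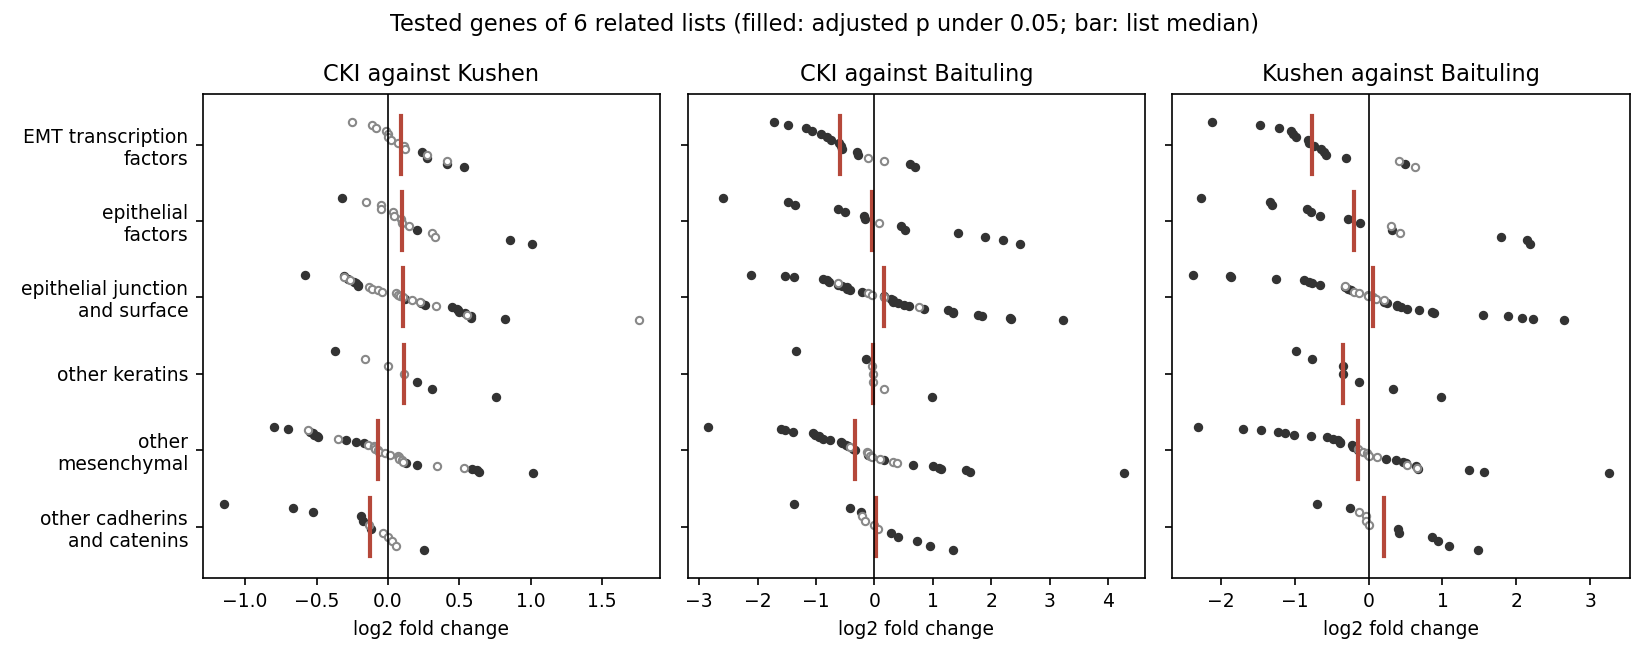
Log2 fold changes (a different range in each panel) of the tested genes of the 6 lists in the 3 comparisons, each point a gene, filled where its edgeR adjusted p is under 0.05 and open otherwise, with the list median as a red bar. EMT transcription factors have a median of -0.59 in CKI against Baituling, and epithelial junction genes lie on both sides of 0.

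The genes whose level followed a member most closely over the 9 libraries were ranked by Pearson's r of log2 CPM, as a description, since the libraries form 3 treatments and r reflects that pattern. Closest to VIM were HNRNPA1, RPL3 and SERPINB1, and 327 of 11964 genes had an r above 0.99 with VIM. Closest to KRT8 were RNASEH2A, SERPINH1 and CAPNS1 (478 genes above 0.99), to KRT18 QTRT1, GPSM3 and SNHG29 (395 genes), and to KRT19 TUBB4B and ADAM15 (152 genes). KIF3C, DYRK3 and AVL9 were closest to CDH2, and HIVEP3, PCDHGC3 and GNE to CDH1, with no gene above 0.99 for either.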

How the data were processed

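RNA of MDA-MB-231 cells was sequenced in 9 libraries, 3 each of CKI, Kushen and Baituling. Per the labels, the authors trimmed reads with Trim Galore 0.3.7, aligned them with STAR 2.5.3a to hg19 and used edgeR. The deposited table holds raw counts per gene. The counting program and annotation are not given in the sources used here. Libraries held 20144628 to 23782071 counts, so counting error is large only for scarce members such as CDH1 and CDH2. Of 24566 rows, 222 repeated an Ensembl gene and were dropped. GENCODE on GRCh37 named 24224 genes, RefSeq 99, and 21 stayed unnamed.

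Low counts were filtered by filterByExpr (minimum count 10, minimum total 15) in edgeR 4.0.16 with R 4.3.3, and the libraries were TMM scaled. The quasi-likelihood model was fitted to the 9 libraries together, with treatment as its term. Two-sided p-values were adjusted by Benjamini-Hochberg over all genes tested, with a threshold of 0.05. A standard error is the fold change over the square root of its F statistic. The design text calls replicates biological without naming separate cultures, so the spread may be partly technical. An exact permutation test of 3 against 3 libraries cannot go below p = 0.1. Replicates differed beyond counting noise in all 9 pairs (chi-square per gene 1.70 to 6.85). The common biological coefficient of variation was 4.53%.

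The members and gene lists were chosen with earlier results of these data known. Named from each list were, per comparison and direction, up to 2 genes with the smallest adjusted p, a log2 CPM averaging 1 or more and no overlap, plus well-known EMT genes. Some genes that this rule names are not reported here. The squamous list and the fit without Baituling replicates 2 and 3 were added after seeing the data. In that fit the lone Baituling library is assumed to vary like the other groups. Alternatives used other scalings, filters and tests (DESeq2 1.42.0, voom in limma 3.58.1, and glmTreat against a log2 fold change of 1), a replicate block, and single libraries left out. CD24 and PECAM1 were not analysed here.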

Additional observations from a re-analysis of the deposited data

How the results depend on the processing

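Of 560 log2 fold changes of members under alternatives, 541 kept their direction and their side of the threshold, 15 lost the call, 2 gained it and 2 turned. Those that turned were ZEB1 in CKI against Baituling, at 0.23 under library totals and 0.0095 under upper quartile scaling. Library totals moved the median of all genes by 0.08 (CKI against Kushen), 0.29 (CKI against Baituling) and 0.21 (Kushen against Baituling), and left 4 members past a log2 fold change of 1 in CKI against Baituling (VIM, CDH2, CDH1 and KRT18) and 3 in Kushen against Baituling (VIM, CDH2 and CDH1). With glmTreat, which tests against that fold itself, 4 members were left in CKI against Baituling and 1 (VIM) in Kushen against Baituling. Leaving out single libraries gave 3 to 5 members past it in Kushen against Baituling and 6 in CKI against Baituling, and with an adjusted p under 0.05 it gave 5 to 7 members (CKI against Kushen), 9 (CKI against Baituling) and 8 to 9 (Kushen against Baituling). Same-numbered libraries showed little shared deviation (correlations of -0.07 to 0.12, and 2 of 9 libraries closest to their own number). This check cannot show whether they were handled together. With a replicate block 6 rather than 7 members passed in CKI against Kushen, ZEB1 being lost (edgeR adjusted p = 0.0591), and no other call changed. Depth limited CDH1 and CDH2, with at most 51 counts in a library.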

Other observations

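Markers of luminal cells were measured beside the epithelial members. In CKI against Kushen 6 of 7 tested luminal and hormone receptor genes were lower and 1 higher, where 20.2% of all genes were lower, and under library totals this was 3 lower, 1 higher and 3 not passing. Between CKI and Baituling 4 were lower and 3 did not pass, where 37% of all genes were lower. For Kushen against Baituling 5 were lower and 2 higher (all genes 36.1% and 35.6%), and under library totals 3 were lower and 2 higher. ERBB2, a growth factor receptor of the EGF receptor family, averaged 56.8 CPM after CKI, 64.1 after Kushen and 104 after Baituling (means of 3 libraries), and was lower after CKI than after Baituling by -0.87 ± 0.05 (edgeR adjusted p = 1.53e-12). The summed level of the 10 luminal genes was 291 to 301 CPM after CKI, 326 to 360 after Kushen and 420 to 427 after Baituling. Of 14 blood and endothelial genes 4 had no count in any library, and the sum was 165 to 171 CPM after CKI, 188 to 202 after Kushen and 283 to 308 after Baituling. ESAM carried most of it, with 141 to 150 CPM after CKI and 259 to 287 after Baituling, while KDR went the other way (averages of 13.2 and 10.2 CPM), as did VWF (18 to 26 and 2 to 3 counts). Of the 5 tested in CKI against Baituling 2 were higher and 3 lower (all genes 39.1% and 37%). The part of these genes in the results on the members was not tested.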
